A study of Homo sapiens with 9 samples.

Results

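Transcripts of the NF-kappa B pathway, with its cytokines and chemokines, were followed in 9 RNA-sequencing libraries of the immortalised human chondrocyte line C28/I2. The set was given as a list of 39 gene symbols, each matched to 1 Ensembl row of the 60671 in every deposited table. It holds the Rel subunits, their inhibitors and kinase, feedback and adaptor genes, and interleukins, chemokines, colony stimulating factors and adhesion genes. The labels give 3 groups of 3 libraries, named Control, Scrambled and CA2 shRNA, in which CA2 is carbonic anhydrase 2, the enzyme that hydrates carbon dioxide, and shRNA is a short hairpin RNA. The design text speaks of transduced cells and gives neither the hairpin's sequence nor whether Control cells were transduced. All groups are the same line, no added cytokine or other agent is named, and whether replicates are separate cultures is not stated, so a p-value covers only the spread between these libraries, which may be technical.

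NF-kappa B is a family of dimeric transcription factors built from RELA, RELB, REL and the products of NFKB1 and NFKB2. Inhibitor proteins of the I kappa B family hold the dimers in the cytoplasm until the I kappa B kinase marks the inhibitors for degradation, which is the canonical route started by tumour necrosis factor, interleukin 1 or Toll-like receptors. In the noncanonical route, the processing of the NFKB2 product releases a dimer with RELB, and TRAF3 with BIRC2 and BIRC3 keeps the kinase encoded by MAP3K14 low. Several inhibitors of the pathway are also its target genes, and in cartilage the pathway is known for driving inflammatory mediators and matrix-degrading enzymes.

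CA2 itself (ENSG00000104267) was counted 55, 41 and 66 times in the Control libraries, 41, 53 and 61 times in those of Scrambled and 28, 15 and 30 times with CA2 shRNA, so that it was low in every library and lowest in the 3 labelled CA2 shRNA. Its log2 change was -0.77 relative to Scrambled (adjusted p = 0.0276, edgeR) and -0.86 relative to Control (adjusted p = 0.0159). Leaving out CA2 shRNA 2, CA2 shRNA 3, Scrambled 2 or Scrambled 3 ended the call against Scrambled (adjusted p 0.0533 to 0.109), as did DESeq2 (adjusted p = 0.0524) and the omission of the filter on low counts (0.0544) with all 9 libraries, and leaving out Control 1, CA2 shRNA 2 or CA2 shRNA 3 ended that against Control (0.0531 to 0.0759). Total counts lay between 16994368 and 34261244 per library. The libraries Control 3 and Scrambled 2 differed from the rest of the controls, with 4.063% and 4.083% mitochondrial counts, against 5.554% to 6.865% in the other 7 libraries. By a chi-square of the counts per gene they were the most alike of all pairs (3.382), although labelled as different groups. Scrambled 2 stood at 16.99 and 15.34 from Scrambled 1 and Scrambled 3, and Control 3 at 12.5 and 7.207 from Control 1 and Control 2. The cause was not tested. The chondrocyte regulator SOX9 lay between 81.6 and 105.1 CPM (counts relative to the library total, scaled by TMM factors), while COL2A1, the main cartilage collagen, reached no more than 2.23 CPM and COL9A1 was at 0 in all 9 libraries. Of 15 chondrocyte markers 10 passed the filter on low counts, and the 15 summed to 111 to 125 CPM in Control, 116 to 125 in Scrambled and 130.1 to 132 in CA2 shRNA. The sum of 6 epithelial markers was likewise higher with CA2 shRNA, at 345 to 369, 338 to 363 and 380.3 to 435 CPM in the same order, and the part of either list in the results was not tested. The sum of 7 fibroblast markers was far larger and not higher with CA2 shRNA, at 1630 to 1780, 1574 to 1778 and 1569 to 1585 CPM. That of 6 endothelial markers was 5.24 to 7.93, 5.935 to 8.44 and 6.99 to 8.02 CPM. The summed level of 10 immune cell markers was 4.60 to 6.38, 4.90 to 6.34 and 5.36 to 6.43 CPM, with the leukocyte marker PTPRC at 0.168 CPM or less. In such bulk libraries fewer cells of a type and less RNA per cell cannot be told apart.

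More of these genes rose than fell in CA2 shRNA cells, and the changes were mostly small. Of the 39 genes, 35 had enough counts to be tested. Against Scrambled, 10 of the 35 rose (28.6%), 3 fell (8.57%) and 22 did not pass, where a gene passes with an adjusted p under 0.05 from edgeR's quasi-likelihood test over all 19812 tested genes. Over all tested genes 8.02% rose, 8.88% fell and 16.9% passed in either direction. Against Control, 11 of the 35 rose (31.4%), 3 fell (8.57%) and 21 did not pass, beside 6.41% rising, 8.26% falling and 14.7% in either direction over all tested genes. The share that rose was thus above that of all genes in each comparison, and the share that fell was close to it. All tested genes include noncoding ones. Of the 13962 with a coding transcript and a 3′ untranslated region, 1572 rose and 1498 fell against Scrambled. Against Control 1248 and 1462 did. These shares are larger than those of all tested genes, which also stand beside the other lists below. The share of the 35 that rose was still above them. The median log2 change of the 35 was 0.178 against Scrambled and 0.185 against Control, against -0.025 and -0.0048 for all tested genes, and 28 and 27 of the 35 were above 0. The comparisons share the 3 CA2 shRNA libraries and are not independent of each other. Since the set was chosen with earlier results of these data known, its shares may partly describe that choice. Between Scrambled and Control 0% of all genes rose and 0% fell in edgeR. Over all genes, DESeq2 gave 1 rise and 0 falls, and edgeR without the filter on low counts 5 and 2. Of the 35, 0 passed in edgeR or in DESeq2, with 1 of them, ICAM1, at an unadjusted p under 0.05 (edgeR). With Control 3 and Scrambled 2 left out, 12 rose and 3 fell against Scrambled and 14 and 3 against Control, while leaving out Control 2 lowered the rises against Control to 7.

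**Figure D1:**
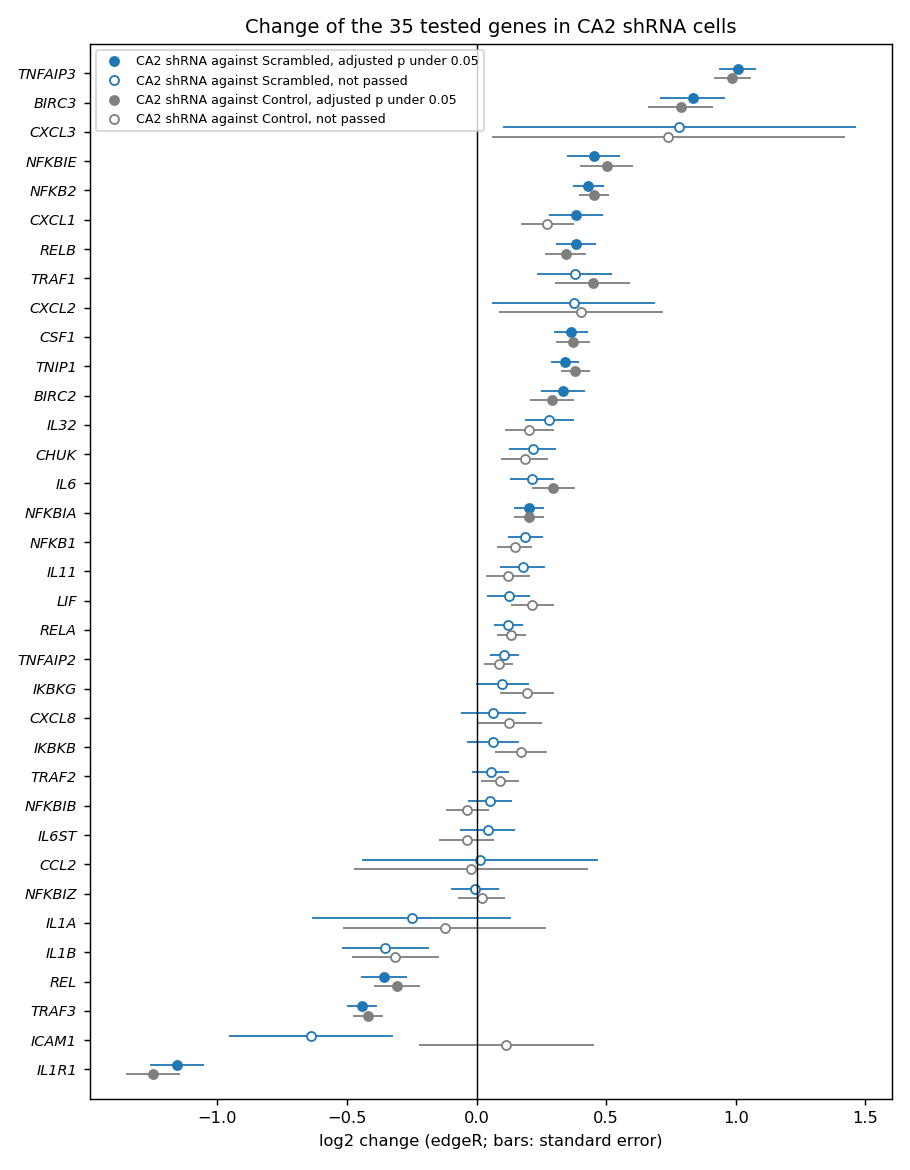
Log2 change (x axis) of the 35 tested genes (y axis) in CA2 shRNA cells against Scrambled (blue) and against Control (grey), with the standard error as bars and filled points for an adjusted p under 0.05. TNFAIP3 and BIRC3 lie at the upper end and IL1R1 at the lower end in each comparison, and most other changes lie within 0.5 of 0.

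The largest rises were among the feedback inhibitors and signalling adaptors. Of these 7 genes 4 rose against Scrambled and 5 against Control, beside 8.02% and 6.41% of all tested genes, while TRAF3 fell in each. The calls of BIRC2 and TRAF1 did not hold in every setting, and so small a group was not tested as such. TNFAIP3 (ENSG00000118503, chr6:137867214-137883312, plus strand, GRCh38) encodes A20, a ubiquitin-editing enzyme that shuts off signalling to NF-kappa B. Its level was 19.7, 19.4 and 19.3 CPM in the Control libraries, 19.3, 19.4 and 18.9 in those of Scrambled and 36.5, 39.8 and 39.5 with CA2 shRNA. The 6 control libraries lay within 1 CPM of each other, and every CA2 shRNA library was far above them. The mean was 201% of that in Scrambled, a log2 change of 1.01 (SE 0.072, adjusted p = 2.7e-08, edgeR), and 198% of that in Control (0.99, SE 0.072, adjusted p = 3.4e-08).

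The promoter of TNFAIP3 is shown because this gene rose most and its promoter holds a pair of matches to the NF-kappa B consensus, a motif of 10 bases searched by its usual ambiguity letters on both strands. The RefSeq window spans 250 bases before to 50 after the start site (GRCh38.p14, chr6:137867009-137867308, plus strand), and capitals mark the matches, at 67 to 58 and 55 to 46 bases before the start.
TNFAIP3: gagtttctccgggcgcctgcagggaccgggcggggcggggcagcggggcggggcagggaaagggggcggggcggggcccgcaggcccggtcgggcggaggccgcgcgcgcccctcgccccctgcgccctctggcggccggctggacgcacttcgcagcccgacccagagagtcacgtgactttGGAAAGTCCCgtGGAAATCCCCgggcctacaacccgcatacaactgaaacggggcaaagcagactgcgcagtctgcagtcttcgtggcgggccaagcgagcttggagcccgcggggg

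BIRC3 (ENSG00000023445, chr11:102317450-102339403, plus strand) and its neighbour BIRC2 (ENSG00000110330, chr11:102347211-102378670, plus strand) encode the inhibitor of apoptosis proteins cIAP2 and cIAP1, ubiquitin ligases at the receptors of tumour necrosis factor. BIRC3 stood at 7.30, 7.40 and 8.61 CPM in the Control libraries, 6.83, 7.85 and 7.94 in those of Scrambled and 13.6, 11.2 and 15.4 with CA2 shRNA, with no overlap between the CA2 shRNA and the control libraries. It rose by 0.83 against Scrambled (SE 0.126, adjusted p = 0.00014) and 0.79 against Control (SE 0.126, adjusted p = 0.00024, edgeR). BIRC2 was at 31.7, 34.1 and 36.1 CPM in the Control libraries, 29.4, 37.0 and 32.6 in those of Scrambled and 42.4, 38.7 and 43.5 with CA2 shRNA. Its groups did not overlap either, although Scrambled 2 came close to CA2 shRNA 2. BIRC2 rose by 0.33 (SE 0.086, adjusted p = 0.012) and 0.29 (SE 0.086, adjusted p = 0.028), a call that ended without Scrambled 3 in the former (0.054) and without Control 1, Control 2, CA2 shRNA 1 or CA2 shRNA 3 in the latter (0.0532 to 0.114).

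TNIP1 (ENSG00000145901, chr5:151029945-151093577, minus strand) encodes a ubiquitin-binding partner of A20. Its levels were 80.4, 84.9 and 82.9 CPM in the Control libraries, 85.6, 85.0 and 84.4 in those of Scrambled and 107, 112 and 105 with CA2 shRNA. Every CA2 shRNA library was higher than every control library, and TNIP1 rose by 0.34 (SE 0.055, adjusted p = 0.00026) and 0.38 (SE 0.055, adjusted p = 8.9e-05, edgeR). TRAF1 (ENSG00000056558, chr9:120902393-120929173, minus strand), an adaptor that NF-kappa B induces, was measured at 7.47, 7.55 and 7.76 CPM in the Control libraries, 9.40, 5.82 and 8.75 in those of Scrambled and 10.96, 9.52 and 10.5 with CA2 shRNA. The Scrambled libraries were widely spread, and the lowest CA2 shRNA library lay just above the highest of them. TRAF1 passed against Control (0.45, SE 0.145, adjusted p = 0.047, edgeR) and not against Scrambled (0.38, SE 0.145, adjusted p = 0.085). The call against Control ended in 9 of 18 other settings, among them the removal of any library of Control or CA2 shRNA (adjusted p up to 0.154), while without Scrambled 1 the other comparison passed (0.0247).

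TRAF3 (ENSG00000131323, chr14:102777449-102911500, plus strand), the adaptor that restrains the noncanonical route, fell. Its levels were 106, 104.5 and 116 CPM in the Control libraries, 109, 114 and 109.5 in those of Scrambled and 82.2, 83.2 and 79.5 with CA2 shRNA. The CA2 shRNA libraries were closely grouped below all 6 others. The mean was 73.7% of that in Scrambled (log2 change -0.44, SE 0.058, adjusted p = 3.5e-05) and 74.9% of that in Control (-0.42, SE 0.058, adjusted p = 6.4e-05, edgeR). TRAF2, which joins TRAF3 to the cIAP proteins, did not pass, with 62.9 ± 4.92, 64.5 ± 4.77 and 67.0 ± 2.75 CPM in Control, Scrambled and CA2 shRNA (SD, n = 3 each). Nor did MAP3K14, the kinase of that route, with 159 ± 1.86, 154 ± 10.1 and 159.8 ± 7.40 CPM, a gene picked here for its role after its values were seen.

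**Figure D2:**
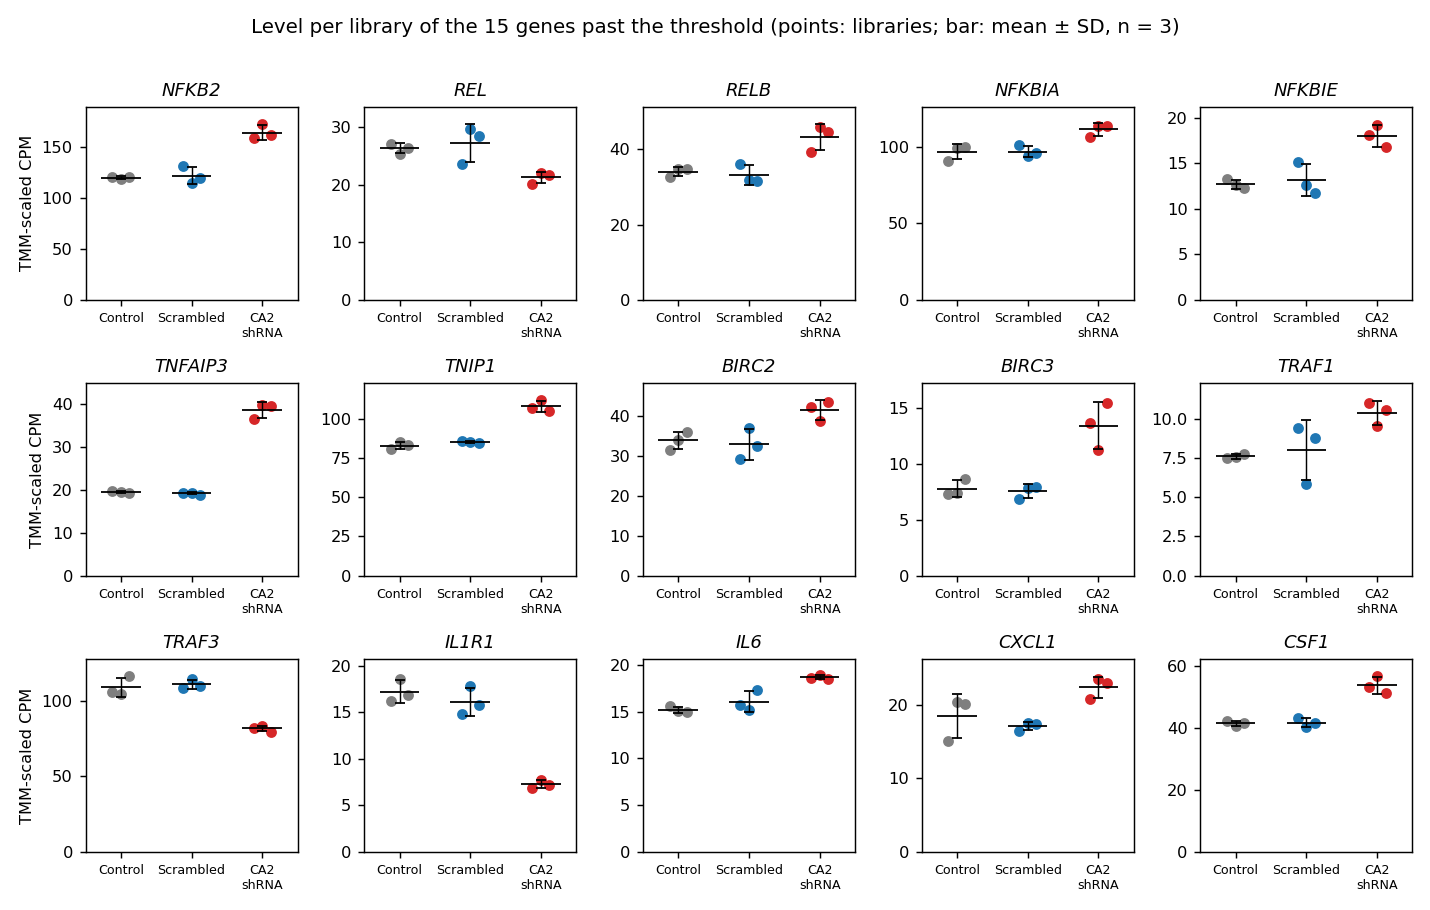
TMM-scaled CPM (y axis, from 0) in each library of Control, Scrambled and CA2 shRNA (x axis) for the 15 genes that passed in at least 1 comparison, with the mean and SD of 3 libraries in black. In TNFAIP3, NFKB2 and TNIP1 the CA2 shRNA points lie well above both controls, in IL1R1 and TRAF3 well below, and in TRAF1, REL and NFKBIA the gap is narrow.

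Of the 5 Rel subunits, NFKB2 and RELB, whose products pair in the noncanonical route, rose and REL fell. NFKB2 (ENSG00000077150, chr10:102394110-102402524, plus strand) encodes p100, the precursor of p52. Its levels were 120.1, 118 and 120.5 CPM in the Control libraries, 130.6, 114 and 119.6 in those of Scrambled and 158, 172 and 161.5 with CA2 shRNA. All 3 CA2 shRNA libraries were above the highest control library, Scrambled 1. NFKB2 rose by 0.43 (SE 0.059, adjusted p = 4.8e-05) and 0.45 (SE 0.059, adjusted p = 2.9e-05, edgeR). RELB (ENSG00000104856, chr19:45001449-45038198, plus strand) was at 32.6, 34.7 and 34.8 CPM in the Control libraries, 36.2, 31.8 and 31.5 in those of Scrambled and 39.3, 45.8 and 44.5 with CA2 shRNA. Again no control library reached the lowest CA2 shRNA library, and RELB rose by 0.38 (SE 0.078, adjusted p = 0.0022) and 0.34 (SE 0.078, adjusted p = 0.0053, edgeR).

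REL (ENSG00000162924, chr2:60881521-60931612, plus strand), the c-Rel subunit, was at 27.1, 25.4 and 26.4 CPM in the Control libraries, 23.5, 29.7 and 28.4 in those of Scrambled and 20.1, 21.9 and 21.7 with CA2 shRNA. The groups did not overlap, but Scrambled 1 came within 2 CPM of a CA2 shRNA library. REL fell, with a log2 change of -0.36 relative to Scrambled (SE 0.089, adjusted p = 0.0090) and -0.31 relative to Control (SE 0.089, adjusted p = 0.026, edgeR). The former call ended without Scrambled 3 (0.0544) or CA2 shRNA 1 (0.072), and the latter without Control 1, Control 3, CA2 shRNA 1 or CA2 shRNA 3 (0.0696 to 0.155). Of the exon bases of REL, 43.3% are shared with another gene model on the same strand (ENSG00000267520), which has 0 counts in all 9 libraries. How reads over shared bases were counted is not stated, so this 0 does not show whether REL lost reads there. NFKB1, which encodes p105 and p50, and RELA, the p65 subunit of the canonical dimer, did not pass. NFKB1 had 45.5 ± 3.05, 44.3 ± 1.19 and 50.45 ± 1.83 CPM in Control, Scrambled and CA2 shRNA (adjusted p = 0.066 and 0.17), and RELA had 143 ± 2.59, 144 ± 2.49 and 157 ± 10.5 CPM (0.16 and 0.13). In both genes every CA2 shRNA library was above all control libraries. The same held for IL32, which did not pass either, while IL1B, also without a call, was below all control libraries. How many of all tested genes separate in this way was not counted.

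Among the I kappa B genes NFKBIE and NFKBIA rose. NFKBIE (ENSG00000146232, chr6:44258166-44265788, minus strand) encodes I kappa B epsilon, and stood at 13.3, 12.6 and 12.3 CPM in the Control libraries, 15.2, 12.6 and 11.8 in those of Scrambled and 18.1, 19.2 and 16.8 with CA2 shRNA. Scrambled 1 was the highest control library and still below the lowest CA2 shRNA library. NFKBIE rose by 0.45 (SE 0.102, adjusted p = 0.0048) and 0.50 (SE 0.103, adjusted p = 0.0023, edgeR). NFKBIA (ENSG00000100906, chr14:35401513-35404749, minus strand), the classical I kappa B alpha, was at 91.1, 99.4 and 99.9 CPM in the Control libraries, 101, 93.7 and 96.0 in those of Scrambled and 107, 114 and 114 with CA2 shRNA. The groups were apart by a few CPM at their nearest. Its rise was 0.20 in each comparison (SE 0.059, adjusted p = 0.024 and 0.026), a call that ended without CA2 shRNA 2, CA2 shRNA 3 or Control 2 in each comparison, without Scrambled 3 in the former and without Control 1 in the latter (0.0539 to 0.123).

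The other inhibitors, the kinase and TNFAIP2 gave no call. NFKBIB, for I kappa B beta, had 26.8 ± 0.606, 25.2 ± 1.27 and 26.2 ± 2.85 CPM in Control, Scrambled and CA2 shRNA, and NFKBIZ, for a nuclear cofactor of the same family, had 19.8 ± 0.792, 20.2 ± 1.95 and 20.0 ± 1.58 CPM. The catalytic kinase subunits had 39.9 ± 1.48, 38.98 ± 5.02 and 45.3 ± 4.14 CPM (CHUK) and 26.0 ± 1.54, 27.98 ± 4.49 and 29.2 ± 1.68 CPM (IKBKB). IKBKG, the regulatory subunit also called NEMO, had 13.2 ± 0.707, 14.2 ± 1.59 and 15.2 ± 1.33 CPM. It has a pseudogene copy, so its reads are uncertain. TNFAIP2, induced by tumour necrosis factor, was abundant at 197 ± 6.34, 194 ± 12.7 and 209 ± 4.97 CPM.

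The receptor IL1R1 showed the largest change of the set in either direction, and most interleukin genes gave no call. IL1R1 (ENSG00000115594, chr2:102064544-102179874, plus strand) is the signalling receptor of interleukin 1, the cytokine best known for driving cartilage breakdown. It was measured at 16.2, 18.6 and 16.9 CPM in the Control libraries, 14.8, 17.8 and 15.7 in those of Scrambled and 6.83, 7.71 and 7.23 with CA2 shRNA. The CA2 shRNA libraries were tightly grouped at less than the level of any control library. The mean was 45.0% of that in Scrambled (log2 change -1.16, SE 0.105, adjusted p = 4.6e-07) and 42.1% of that in Control (-1.25, SE 0.105, adjusted p = 1.8e-07, edgeR).

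The ligands IL1A and IL1B, which signal through this receptor, were low and did not pass: IL1B had 3.79 ± 0.193, 3.90 ± 0.347 and 3.04 ± 0.477 CPM in Control, Scrambled and CA2 shRNA (adjusted p = 0.17 and 0.25), and IL1A had 8 to 32 counts per library. IL6 (ENSG00000136244, chr7:22725884-22732002, plus strand), an inflammatory cytokine and classical target, was at 15.6, 15.1 and 14.9 CPM in the Control libraries, 15.7, 15.2 and 17.3 in those of Scrambled and 18.6, 18.9 and 18.5 with CA2 shRNA. The CA2 shRNA libraries were nearly equal and above all others. IL6 rose against Control by 0.30 (SE 0.084, adjusted p = 0.023, edgeR) and did not pass against Scrambled (0.21, SE 0.084, adjusted p = 0.093). The call against Control ended without Control 2, Control 3 or CA2 shRNA 2 and without the filter on low counts (0.051 to 0.104). IL6 shares 20.7% of its exon bases with the antisense gene IL6-AS1, which had 157 counts in all libraries together against 3667 for IL6.

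The remaining members of the set from the interleukin 6 family gave no call, with LIF at 60.4 ± 5.14, 64.2 ± 7.52 and 70.05 ± 2.5001 CPM, IL11 at 21.9 ± 1.94, 21.1 ± 1.10 and 23.9 ± 1.35 CPM, and the shared receptor subunit IL6ST at 154 ± 12.2, 146 ± 22.4 and 150.1 ± 11.6 CPM. IL32, a cytokine induced in inflamed joints, missed the threshold narrowly against Scrambled, with 15.8 ± 1.82, 14.999 ± 0.647 and 18.2 ± 0.555 CPM (0.28, adjusted p = 0.0505, and 0.20, adjusted p = 0.18 against Control).

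Among the 7 chemokines of the set, which attract leukocytes, CXCL1 alone passed, and only against Scrambled. Whether its changes in the 2 comparisons differ was not tested. CXCL1 (ENSG00000163739, chr4:73869393-73871308, plus strand), a neutrophil attractant, was at 15.1, 20.4 and 20.1 CPM in the Control libraries, 16.5, 17.6 and 17.3 in those of Scrambled and 20.7, 23.5 and 22.9 with CA2 shRNA. Control 2 and Control 3 nearly reached the lowest CA2 shRNA library, while Control 1 was the lowest of all 9. CXCL1 rose by 0.38 against Scrambled (SE 0.104, adjusted p = 0.016, edgeR), a call lost without Scrambled 3 (0.0575) or CA2 shRNA 2 (0.0906), and had a change of 0.27 against Control (SE 0.104, adjusted p = 0.092), which passed without Scrambled 2 (0.0389), without Control 3 and Scrambled 2 (0.0206) and with the replicate block (0.0448). CXCL2 and CXCL3, near-identical neighbours of CXCL1, had 14 to 30 and 2 to 12 counts per library and did not pass. Whether their reads can be fully separated from those of CXCL1 was not tested. CXCL8, the interleukin 8 gene, had 14.1 ± 2.19, 14.7 ± 2.00 and 15.4 ± 1.47 CPM (adjusted p = 0.79 and 0.59). CCL2, a monocyte attractant, had 6 to 25 counts per library and did not pass, CCL5 had 1 to 3 counts per library and was not tested, and CCL20 had 0 counts in all 9.

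The colony stimulating factor CSF1 (ENSG00000184371, chr1:109910242-109930992, plus strand), which sustains macrophages and osteoclasts, rose. It was at 42.3, 40.7 and 41.8 CPM in the Control libraries, 43.4, 40.4 and 41.6 in those of Scrambled and 53.3, 56.9 and 51.3 with CA2 shRNA. The control libraries were close together and all below the CA2 shRNA libraries, with a rise of 0.36 (SE 0.065, adjusted p = 0.00072) against Scrambled and 0.37 (SE 0.0655, adjusted p = 0.00064, edgeR). CSF2, for the granulocyte and macrophage factor, had 2 to 16 counts per library, and TNFAIP6, a hyaluronan-binding protein, had 0 to 4, and neither was tested. The adhesion gene ICAM1, a standard NF-kappa B target, was also near the limit of detection, with 10 to 46 counts per library, and did not pass (adjusted p = 0.19 and 0.88).

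Levels of different genes can be compared only per length, for which the deposited RPKM (CPM per kilobase of exon) was used. In Control the mean RPKM was highest for NFKBIA (40.7) and TNFAIP2 (38.9), whose libraries overlap, followed by RELA (26.1) and NFKB2 (25.3), which also overlap. TRAF2 (17.1), LIF (15.6) and IL6ST (15.2) came next with overlapping ranges. In all, 30 of the 39 genes had a mean of at least 1 RPKM in Control and 9 were below it, among them CXCL2, IL1A, CCL2, ICAM1 and CSF2. TNFAIP3 moved from place 22 in Control (3.82 to 3.94 RPKM) to place 18 in CA2 shRNA (7.30 to 7.95), and IL1R1 from place 25 (2.28 to 2.59 RPKM) to place 29 (0.964 to 1.06). NFKB2 stood at place 4 in Control and above RELA in CA2 shRNA, where the lowest NFKB2 library (33.7 RPKM) exceeded the highest RELA library (30.2).

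**Figure D3:**
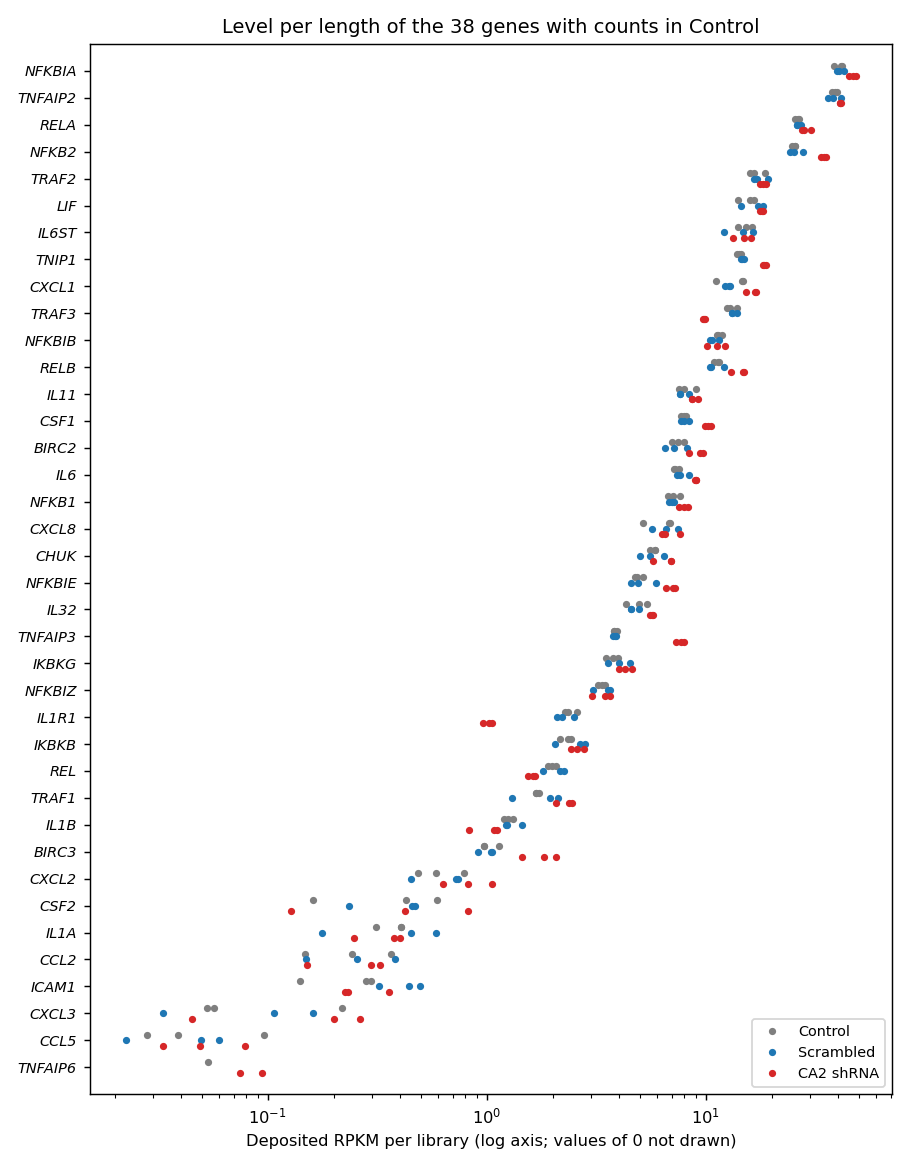
Deposited RPKM per library (x axis, log scale) of the 38 genes with counts in Control (y axis, ordered by the Control mean), with a point for each library in grey (Control), blue (Scrambled) and red (CA2 shRNA). The genes span from under 0.1 RPKM (CCL5) to over 40 (NFKBIA), and the red points of TNFAIP3 and IL1R1 are apart from the others.

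The NF-kappa B consensus was found in the RefSeq promoter windows of 16 of the 32 genes that have a window (50%), against 7.094% of 27305 genes and 8.975% of the tested genes. Counted by window of equal length, 18 of 50 windows held it (36%), against 5.909% of all 35116 windows. The set was drawn up as a pathway together with its textbook targets, so this share describes how it was chosen. Among members that rose against Scrambled and have a window, 6 of 7 held a match (BIRC3, CXCL1, NFKB2, NFKBIA, TNFAIP3 and TNIP1, not BIRC2), as did 2 of the 3 that fell (REL and TRAF3) and 7 of the 19 that did not pass. Against Control it was 6 of the 8 that rose (not BIRC2 or TRAF1), 2 of the 3 that fell and 7 of the 18 that did not pass. The rising members RELB, NFKBIE and CSF1 have no window. Over all genes the match was about as frequent among those that rose (9.527%), fell (9.643%) or did not pass (8.815%) against Scrambled. Against Control these shares were 10.44%, 9.084% and 8.816%. A match is a run of letters and not a bound site.

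The matched stretches of members that rose against Scrambled, other than TNFAIP3, follow with those of CXCL2 and CXCL3, REL and TRAF3. Their likeness is set by the consensus searched and is no result. IL6, which rose only against Control, also holds a match that is not printed. Capitals mark the match, written on the strand of the gene (GRCh38.p14), and a run of 11 capitals is a match read on either strand.
BIRC3, chr11:102317275-102317304, plus strand: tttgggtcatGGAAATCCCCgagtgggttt
BIRC3, chr11:102317339-102317368, plus strand: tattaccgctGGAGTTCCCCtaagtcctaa
NFKB2, chr10:102394462-102394490, plus strand: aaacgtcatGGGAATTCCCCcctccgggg
NFKB2, chr10:102395674-102395703, plus strand: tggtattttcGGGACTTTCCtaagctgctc
NFKBIA, chr14:35404811-35404840, minus strand: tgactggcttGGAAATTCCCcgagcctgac
TNIP1, chr5:151081057-151081086, minus strand: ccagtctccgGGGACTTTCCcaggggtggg
CXCL1, chr4:73869305-73869333, plus strand: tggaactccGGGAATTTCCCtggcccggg
CXCL2, chr4:74099254-74099282, minus strand: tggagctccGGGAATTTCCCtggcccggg
CXCL3, chr4:74038749-74038777, minus strand: tggagctccGGGAATTTCCCtggcccggc
REL, chr2:60881518-60881546, plus strand: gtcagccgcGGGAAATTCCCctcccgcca
TRAF3, chr14:102777406-102777435, plus strand: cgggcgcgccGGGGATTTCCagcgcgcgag
The match is the same run of letters in CXCL1, CXCL2 and CXCL3, of which CXCL1 passed against Scrambled. NFKB2 holds 4 matches over 2 windows, of which 2 are printed.

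The 3 falling members shared a short run of letters in their 3′ untranslated regions. The heptamers ACACCAA and CACCAAA were taken up here because earlier results of these data had named them among falling genes, so their presence is not independent support. Searched on the transcript strand of the longest 3′ untranslated region of each gene (GENCODE 29), at least 1 of them was in 3 of the 3 members that fell against Scrambled, 0 of the 10 that rose and 5 of the 22 that did not pass (CCL2, IL1B, IL6ST, TNFAIP2 and TRAF1). Over all tested genes with such a region the share was 18.49%, with 46.33% of those that fell and 8.651% of those that rose. In the comparison with Control it was 3 of the 3 members that fell, 1 of the 11 that rose (TRAF1) and 4 of the 21 that did not pass, beside 48.97% and 9.776% of all genes that fell and rose. The octamer ACACCAAA, in which both heptamers overlap, was in IL1R1, TRAF3 and REL and in no other tested member. Over all tested genes with such a region the share was 4.176%, with 16.6% of those that fell and 1.272% of those that rose against Scrambled. The median length was 5716 bases in the 3 falling members and 770 in the 10 rising ones, and length was not accounted for. The region of IL1R1 holds 2 of each heptamer, counting those within the octamer, and only its octamer is printed. The octamer sites of IL1R1 and TRAF3 are shown, in capitals, because these members fell in both comparisons under all 18 other settings (GRCh38).
IL1R1, chr2:102178656-102178685, plus strand: ttttattcaagACACCAAAttccaaacttc
TRAF3, chr14:102906113-102906142, plus strand: cttaaacttgaACACCAAAaaaacacacac
Of the genes in the other lists, at least 1 heptamer was in 2 of the 10 that fell against Scrambled (MYD88 and TNFSF15), 2 of the 25 that rose (IRF1 and SOD2) and 13 of the 80 that did not pass. These shares of 20.0%, 8.0% and 16.2% stand beside the 46.33% of all falling genes and 8.651% of all rising ones. SOD2, whose region also holds the octamer, rose by 0.36 against Scrambled (adjusted p = 0.00057, edgeR) and was picked after its values were seen.

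Other components of the pathway, from a list of 45 genes that are no members of the set, showed more rises than falls. Of the 44 tested, 10 rose (22.7%) and 3 fell (6.82%) against Scrambled, beside 8.02% and 8.88% of all genes tested. Against Control 8 rose (18.2%) and 3 fell (6.82%), beside 6.41% and 8.26%, and the medians were 0.063 and 0.086. The list was chosen with earlier results of these data known, so these shares partly describe that choice. TNFRSF1B, the second receptor of tumour necrosis factor, rose from 10.9 ± 0.917 CPM in Scrambled to 20.2 ± 1.41 in CA2 shRNA (0.88, SE 0.09998, adjusted p = 6.7e-06), with 12.6 ± 1.06 CPM in Control. IKBKE, a kinase related to the I kappa B kinases, rose from 18.8 ± 2.07 to 28.4 ± 0.582 CPM (0.60, adjusted p = 8.9e-05). TLR3, a receptor of double-stranded RNA, was at 1.44 ± 0.0654 and 2.41 ± 0.541 CPM (0.76, adjusted p = 0.030), a call lost without Scrambled 1, Scrambled 3 or CA2 shRNA 3 (0.0672 to 0.181). TLR3 did not pass against Control (0.65, adjusted p = 0.069, edgeR). MYD88, the adaptor that joins interleukin 1 and Toll-like receptors to their kinases, fell from 58.6 ± 1.37 to 35.5 ± 0.306 CPM (-0.72, SE 0.063, adjusted p = 2.9e-07) and was at 61.2 ± 2.90 CPM in Control.

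The other falling components were TAB2 (-0.52) and TAB3 (-0.30), which link the receptors to the kinase MAP3K7, named because only 3 genes fell. IL1RAP, the partner chain of IL1R1, rose while IL1R1 fell: it had 14.0 ± 1.47, 12.7 ± 1.68 and 17.98 ± 0.808 CPM in Control, Scrambled and CA2 shRNA, with changes of 0.49 (adjusted p = 0.0037) and 0.36 (adjusted p = 0.031, edgeR). The latter call was lost without Control 1, Control 2, CA2 shRNA 1 or CA2 shRNA 2 (0.0766 to 0.138), and the gene was picked after its values were seen. The TAB3 calls were lost in 6 and 5 of 18 other settings.

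**Figure D4:**
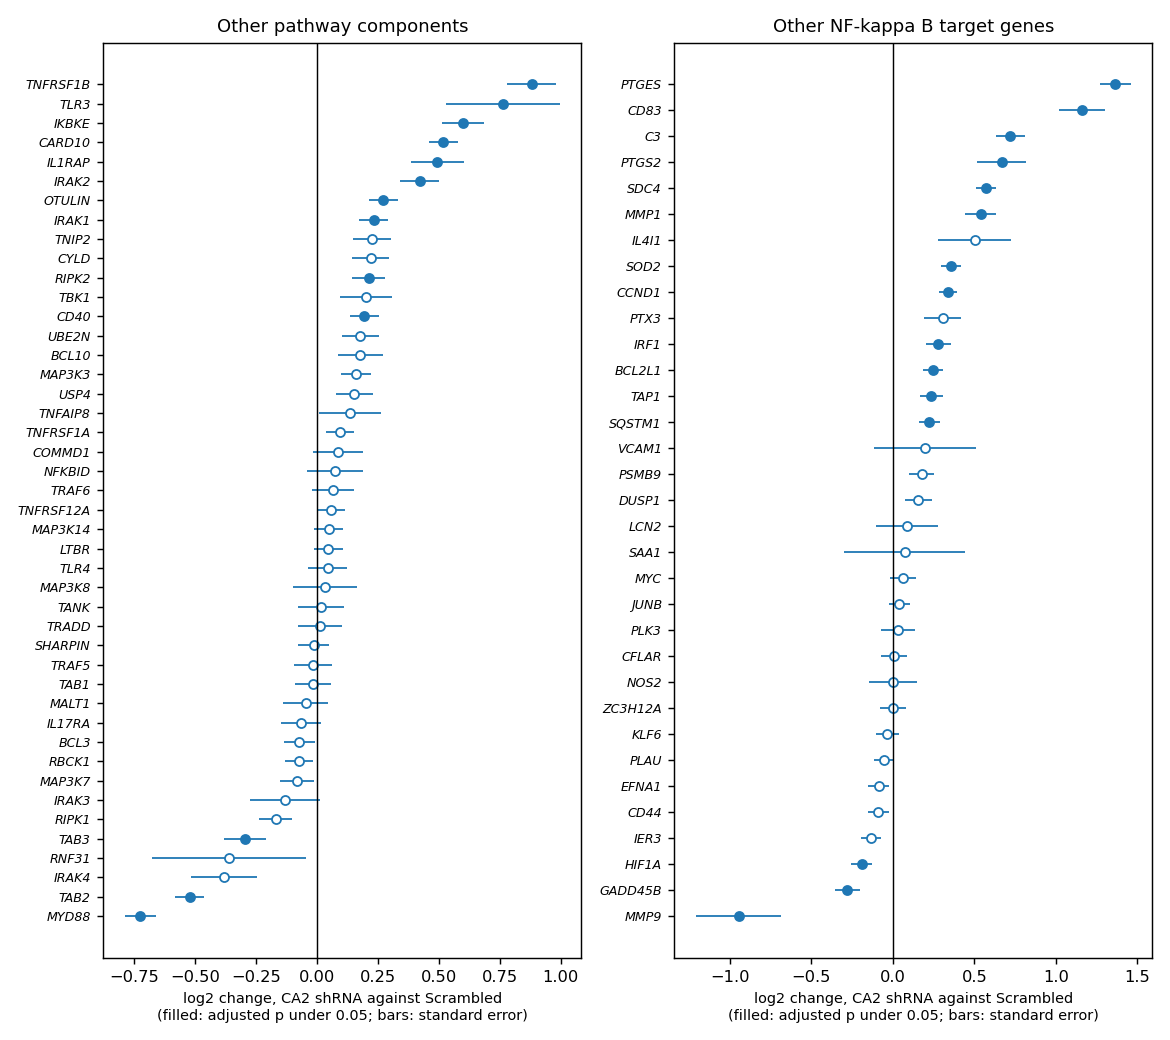
Log2 change in CA2 shRNA cells against Scrambled (x axis, bars are the standard error) of the 44 tested other pathway components (left) and the 33 tested other NF-kappa B target genes (right), filled where the adjusted p was under 0.05. TNFRSF1B and PTGES head their lists, and MYD88 and MMP9 lie at the lower ends.

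Of 38 other NF-kappa B target genes, 33 were tested, and 12 rose (36.4%) and 3 fell (9.09%) against Scrambled, beside 8.02% and 8.88% of all genes tested. Against Control 10 rose (30.3%) and 2 fell (6.06%), beside 6.41% and 8.26%, and the medians were 0.155 and 0.158. This list was chosen with earlier results of these data known, so its shares are not independent support. PTGES, the prostaglandin E synthase gene, rose from 14.9 ± 0.223 to 38.5 ± 3.90 CPM (1.37, SE 0.094, adjusted p = 1.8e-08, edgeR), and the immune surface gene CD83 from 4.44 ± 0.733 to 9.95 ± 1.13 CPM (1.16, adjusted p = 1.5e-05). C3, a complement component, rose from 25.4 ± 1.05 to 42.0 ± 4.70 CPM (0.72, adjusted p = 1.2e-05). The gelatinase gene MMP9 was at 2.20 ± 0.607 CPM in Scrambled and 1.12 ± 0.144 in CA2 shRNA (-0.95, adjusted p = 0.018), a call that ended on leaving out either Scrambled 1 or 3, or else CA2 shRNA 1 or 2 (0.0656 to 0.0829), and it did not pass against Control (adjusted p = 0.24).

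Of 35 other cytokines and chemokines 17 were tested, and 0 rose and 2 fell (11.8%) in each comparison, near the 8.88% and 8.26% of all genes that fell. The falls were TNFSF15 and CTF1 against Scrambled, and TNFSF15 and CXCL12 against Control. TNFSF15, a ligand of the tumour necrosis factor family, fell from 4.37 ± 0.493 CPM in Scrambled to 1.62 ± 0.452 in CA2 shRNA (-1.41, SE 0.215, adjusted p = 0.00016, edgeR) and was at 3.93 ± 0.796 CPM in Control. CTF1, of the interleukin 6 family, was under 1 CPM in each group (-1.12, adjusted p = 0.0445), a call lost in 9 of the 16 other settings that tested it. It did not pass against Control (adjusted p = 0.13, edgeR). The chemokine CXCL12 had 16.4 ± 0.312, 14.9 ± 0.999 and 13.2 ± 0.724 CPM in Control, Scrambled and CA2 shRNA. It fell against Control (-0.32, adjusted p = 0.023) and did not pass against Scrambled (-0.17, adjusted p = 0.23, edgeR). Only 1 gene of the list fell against Control without Control 1, Control 3, CA2 shRNA 1 or CA2 shRNA 2. Of 28 cytokine and chemokine receptors 21 were tested, and 3 rose (14.3%) and 2 fell (9.52%) against Scrambled, beside 8.02% and 8.88% of all genes. Against Control 5 rose (23.8%) and 2 fell (9.52%), beside 6.41% and 8.26%. Earlier results of these data were known when both lists of this paragraph were chosen. IL6R, which binds interleukin 6, rose from 12.4 ± 1.13 to 24.4 ± 1.30 CPM (0.97, SE 0.093, adjusted p = 8.2e-07), from a Control level of 13.6 ± 0.831 CPM. The death receptor gene TNFRSF10B rose from 85.2 ± 3.21 to 119.8 ± 3.73 CPM (0.49, adjusted p = 1.1e-05). IL7R, the interleukin 7 receptor, fell from 27.3 ± 4.35 to 20.6 ± 1.02 CPM (-0.41, adjusted p = 0.0074), lost without CA2 shRNA 1 (0.0567). IL22RA1, an interleukin 22 receptor chain, was at 6.10 ± 0.861 and 8.32 ± 1.39 CPM (0.45, adjusted p = 0.0385), lost in 7 of 18 other settings. IL22RA1 did not pass against Control (0.26, adjusted p = 0.27, edgeR). IFNGR2, an interferon gamma receptor chain named because only 2 receptors fell, had a change of -0.30 against Scrambled (adjusted p = 0.0024).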

How the data were processed

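RNA sequencing of 9 libraries (3 Control, 3 Scrambled, 3 CA2 shRNA) was used. Per the submitters' processing notes, the tools were bcl2fastq, STAR 2.5.1a and featureCounts 1.4.6-p5 on GRCh38; annotation release, strand setting and the handling of multi-mapping reads were not given in the sources used, so antisense and near-identical genes are uncertain. The authors deposited, per the file headers, raw counts, CPM and RPKM for 60671 genes. Genes were matched to symbols by Ensembl ID.

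Raw counts were filtered (filterByExpr, 19812 genes), scaled by TMM and tested with edgeR 4.0.16 (quasi-likelihood, robust, 1 term per group, all 9 libraries, 6 residual degrees of freedom), with Benjamini-Hochberg adjustment over all genes and a threshold of 0.05. The common biological coefficient of variation was 7.94%. The test was checked on simulated counts. Standard errors are the log2 change divided by the root of F. Every pair of libraries differed by more than sampling noise. Alternatives were other scalings, other filters, DESeq2 1.42.0, fits of 2 groups, a replicate block and libraries left out.

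The set, the lists and the heptamers were chosen with earlier results of these data known. Each member that passed in any comparison is given in all 9 libraries. Of each other list, counts and up to 4 members with the largest changes past the threshold against Scrambled are named. TAB2, TAB3, IFNGR2, IL1RAP, MAP3K14, SOD2, IRF1, CXCL12 and the genes listed with a heptamer were added after their values were seen. Promoter windows are from RefSeq (GRCh38.p14), and 7 of the 39 genes were without a window (RELB, NFKBIE, IKBKB, LIF, CCL2, CCL5 and CSF1). A further overlapping gene and a further sequence are not reported here.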

Additional observations from a re-analysis of the deposited data

How the results depend on the processing

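Over 18 other settings 0 of the 15 genes that passed in a comparison with CA2 shRNA changed direction, while 8 of the 20 tested genes that passed in neither did in at least 1 setting (CCL2, CXCL8, ICAM1, IKBKB, IL1A, IL6ST, NFKBIB and NFKBIZ). With another scaling, filter, DESeq2, fits of the compared groups alone or without Control 3 and Scrambled 2, 10 to 12 of the genes rose against Scrambled and 10 to 14 against Control, and 3 fell in each. Leaving out 1 library at a time gave 7 to 12 rises and 2 to 3 falls against Scrambled, the lowest without Scrambled 3, and 7 to 14 rises and 2 to 3 falls against Control, the lowest without Control 2; a left-out library means fewer samples. NFKB2, RELB, NFKBIE, TNFAIP3, TNIP1, BIRC3, CSF1, TRAF3 and IL1R1 passed in both comparisons in all 18. Replicate numbers were not seen to pair the libraries (correlations of same-numbered deviations -0.185 to 0.105, 1 of 9 over 0.1, and 4 of 18 cases highest with their own number), and with the replicate block 10 genes rose and 3 fell against Scrambled and 12 and 3 against Control, CXCL1 being added. Scrambled against Control gave 0 of these genes in every setting. Over all genes, 1589 rises and 1759 falls against Scrambled became 864 rises on leaving out Scrambled 3, 906 rises on leaving out CA2 shRNA 2, 1129 falls on leaving out CA2 shRNA 1 and 1164 falls on leaving out CA2 shRNA 3, and removing Control 3 together with Scrambled 2 gave 2407 rises. Against Control, rises numbered 663 to 2030 and falls 1063 to 2137, beside 1269 and 1637. The causes were not tested. Genes of few counts, such as CXCL2, CXCL3, IL1A, CCL2 and ICAM1, had standard errors from 0.31 to 0.73, so that a change of the size seen in TNIP1 was not detectable in them at this depth.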

Other observations

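ICAM1 was the only member at an unadjusted p under 0.05 between Scrambled and Control, with 0.965, 0.487 and 1.03 CPM in the Control libraries, 1.51, 1.70 and 1.11 in those of Scrambled and 0.797, 1.26 and 0.766 with CA2 shRNA. The lowest Scrambled library was just above the highest Control library, and the change of 0.75 (SE 0.309) did not pass after adjustment. ICAM1 shares 23.6% of its exon bases with the antisense gene ICAM4-AS1, which had 21 counts in all libraries together against 239 for ICAM1.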
